A study of Mus musculus with 32 samples.

Results

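Endothelial cells, which line the blood vessels, were picked out of single-cell RNA-seq data of the embryonic mouse cortex by their own transcripts. A cell barcode with at least 1000 unique molecular identifiers (UMIs, each one captured RNA molecule) and 500 genes was taken as endothelial when it held at least 2 UMIs of Cldn5, the claudin of endothelial tight junctions. It also had to hold at least 1 UMI in the sum of Pecam1, an adhesion molecule of endothelial junctions, and the VEGF receptors Flt1 and Kdr, and at most 1 UMI of the neuronal factor Neurod6. Of 143705 barcodes past the filter on UMIs and genes, 516 met this rule, or 0.359%, and 155 of them came from E12.5, 52 from E14.5, 137 from E16.0 and 172 from E17.5. The members were thus chosen by the measured UMI counts of Cldn5, Pecam1, Flt1, Kdr and Neurod6 in the same libraries. These 5 genes stayed in the fit over all genes where they passed its filter, and no test of them is given.

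The tissue was the dorsal telencephalon of C57BL/6J embryos at 4 stages between E12.5 and E17.5 (E, embryonic day), dissected without the medial wall, where the hippocampus forms. At each stage 4 wild-type (WT) embryos, 2 male and 2 female, were each matched by litter and sex to an embryo heterozygous for loss of Chd8 (Chd8+/-, here het), a gene for a chromatin remodeller, and each embryo gave 1 10x Genomics 3′ library, 32 in all. The heterozygous state was present in the whole embryo, so it concerned the endothelial cells and the tissue around them alike, and the labels name no allele. Each litter has 1 stage, so stage and litter cannot be told apart.

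Brain vessels grow into the neural tube from a plexus outside it, drawn by VEGF and by Wnt7a and Wnt7b from neural progenitors, which act on endothelial beta-catenin through Fzd4, Lrp5 and Lrp6 with the co-receptors Adgra2 (Gpr124) and Reck. Under this signal the cells lose the leaky state marked by PLVAP, the protein of the diaphragms that span fenestrae and vesicles, and acquire the blood-brain barrier, with sealed junctions, little vesicle traffic and a set of nutrient transporters. MFSD2A, a lipid transporter of barrier endothelium, carries docosahexaenoic acid and holds back caveolar transcytosis.

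The label was checked against endothelial genes that the rule did not use. Over 7 endothelial markers that the rule did not use, the 516 cells held a median of 41 UMIs and 6 markers, and 499 cells (96.7%) held 3 or more. Tie1, an orphan receptor of endothelium, was at 178, 194, 163 and 186 CPM (counts per 1000000 UMIs) in the pooled cells of the 4 stages and at 0.333, 0.359, 0.311 and 0.363 CPM in all other barcodes. The genes of the rule itself are given as levels only. Cldn5 was at 1227, 2703, 4859 and 5385 CPM from E12.5 to E17.5, Pecam1 at 390, 409, 425 and 418, Flt1 at 383, 499, 509 and 873, and Kdr at 681, 580, 633 and 733.

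At the edge of the rule, 9 cells with exactly 2 UMIs of Cldn5 lay inside, with a median of 9 UMIs of those 7 markers. Outside lay 17 barcodes that met the rest of the rule with exactly 1, also with a median of 9. Of the 9 cells 4 (44.4%) held 3 or more of the markers, and of the 17 barcodes 9 (52.9%) did. Among the 507 cells with 3 or more UMIs of Cldn5 it was 97.6%. A further 52 barcodes failed by Neurod6 alone and 20 by the lack of a receptor UMI. No barcode sequence of these cells occurred in more than 1 library.

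RNA of genes that mark other cell types was found in some of the cells, and these values stand beside the results below. A list of 10 pericyte genes (mural cells that wrap capillaries) reached at least 3 UMIs in 10.3%, 36.5%, 46.0% and 36.6% of the cells at the 4 stages in order, with summed levels of 4.29 to 1020, 0 to 4180, 1430 to 3770 and 582 to 4400 CPM over the libraries and no pericyte marker at 0 in any stage. Erythroid genes summed to 47.2 to 2140, 109 to 169000, 5290 to 132000 and 793 to 97100 CPM over the libraries of the 4 stages. In the other barcodes they summed to 9050, 4320, 2820 and 8000 CPM. Of the endothelial cells, 21, 3, 30 and 29 held 20 or more erythroid UMIs. The meningeal fibroblast list reached at least 3 UMIs in 38.7%, 36.5%, 43.1% and 44.8% of cells, with summed levels of 51.4 to 875 CPM over the libraries. Of its 10 genes, 9, 4, 5 and 8 had a UMI at the 4 stages, Aldh1a2 was at 0 at all of them and Lum at all but the first. The meningeal list holds Cxcl12 and Foxc1, and Foxc1 is also on the endothelial transcription factor list used below. UMIs of the meningeal list therefore need not come from fibroblasts. The longer lists named below are the pericyte, microglial and meningeal lists with both genes, and the shorter lists leave both out. The microglial list summed to 0 to 152 CPM, and 2, 0, 2 and 1 cells held 3 or more of its UMIs. Of its 10 genes, 4, 1, 6 and 9 had a UMI at the 4 stages, and C1qa was at 0 at each. A simulated-doublet caller marked 49 of the 516 cells, against a lower share, 5472 of 143705 (3.81%), of all barcodes past the filter. The number it marked in each library was set by an assumed doublet rate. Results are given with all 516 cells, and where it matters without the cells that carried 3 or more UMIs of another type's defining genes or 20 or more erythroid UMIs, which left 123, 30, 68 and 102 cells.

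The gene-level results below rest on the transporters and on the genes of Wnt signalling, so promoters of 3 transporters are shown first, since each holds the core of the TCF/LEF motif, the site through which beta-catenin acts on its targets. Each is the stretch of 250 bases before a RefSeq transcription start (GRCm38.p6), 5′ to 3′ on the gene's strand. Capitals mark CTTTGA or, on the opposite strand, TCAAAG. Mfsd2a lies on the minus strand (chr4:122961189-122961438), Abcb1a on the plus strand (chr5:8566841-8567090) and the second of the Slc7a1 starts on the minus strand (chr5:148392816-148393065).
Mfsd2a: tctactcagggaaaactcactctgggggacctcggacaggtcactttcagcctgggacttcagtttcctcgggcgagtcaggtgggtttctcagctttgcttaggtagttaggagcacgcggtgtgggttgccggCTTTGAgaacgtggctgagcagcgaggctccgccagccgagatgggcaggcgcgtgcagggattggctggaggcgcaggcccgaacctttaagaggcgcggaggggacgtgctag
Abcb1a: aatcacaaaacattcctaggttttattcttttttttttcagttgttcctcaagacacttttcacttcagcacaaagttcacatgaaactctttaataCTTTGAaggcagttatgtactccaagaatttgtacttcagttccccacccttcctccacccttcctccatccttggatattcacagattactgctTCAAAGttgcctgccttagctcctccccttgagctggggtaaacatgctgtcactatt
Slc7a1: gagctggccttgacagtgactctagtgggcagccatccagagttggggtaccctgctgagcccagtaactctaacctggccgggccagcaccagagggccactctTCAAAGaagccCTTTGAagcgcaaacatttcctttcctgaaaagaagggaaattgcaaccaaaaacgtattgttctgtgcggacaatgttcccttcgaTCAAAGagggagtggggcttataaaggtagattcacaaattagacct
The match begins 115 bases before the start in Mfsd2a, 153 and 58 bases before it in Abcb1a, and 145, 134 and 47 bases before it in Slc7a1, where the first pair is separated by 5 bases on opposite strands. The other listed start of Slc7a1 held none. Nor did any listed start of Slco1c1, Slc38a5, Tfrc, Lrp8, Axin2 or Nkd1, which also rose over development. Of 32851 mouse promoters of this length, 13.8% held the motif on either strand, against 5 of 23 promoters (21.7%) of the 15 transporter genes with an entry and 3 of 16 (18.8%) of the 11 Wnt genes with one, Lef1, Sp5 and Tnfrsf19. None of 6 promoters of the caveola genes Cav1, Cav2, Cavin1 and Cavin2 held it, too few to set against 13.8%. Plvap and Cavin3 had no promoter entry and were not searched. A match describes letters in this window and is not a mapped binding site, and its part in the rises below was not tested. Mfsd2a transcripts began at 14 CPM at E12.5 and Slc7a1 transcripts at 36.7 CPM, and both rose over development as described next.

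Between E12.5 and E17.5 Plvap fell in step after step while barrier genes rose. Plvap (chr8:71497753-71511806, GRCm38.p6) was found at 307, 463 and 566 CPM as the lowest, median and highest of the 8 libraries of E12.5. The same order of values was 146, 192 and 281 for E14.5, 38.0, 51.1 and 107 for E16.0, and 0, 7.37 and 24.2 for E17.5. No 2 stages overlapped, and 2 of the 8 libraries at E17.5 had no Plvap UMI. Plvap fell at each step, by 0.97 ± 0.21, 2.00 ± 0.24 and 2.84 ± 0.36 on the log2 scale (± SE), with adjusted p of 0.0021, 6.75e-06 and 5.48e-06 by edgeR's quasi-likelihood test. From E12.5 to E17.5 it fell by 5.82 ± 0.28 (adjusted p 1.55e-17), and by 5.0 without the cells that carried other types' genes.

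Mfsd2a (chr4:122946850-122961194) went the other way. Its lowest, median and highest values were 0, 14 and 27.1 CPM in the libraries of E12.5, 122, 241 and 469 in those of E14.5, 220.5, 352 and 556 in those of E16.0, and 254, 371 and 447 in those of E17.5. Every library of E14.5 and later lay above every library of E12.5, and the 3 later stages overlapped. The step from E12.5 to E14.5 was 4.55 ± 0.32 (edgeR adjusted p 1.8e-12), and neither later step passed the test.

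**Figure D1:**
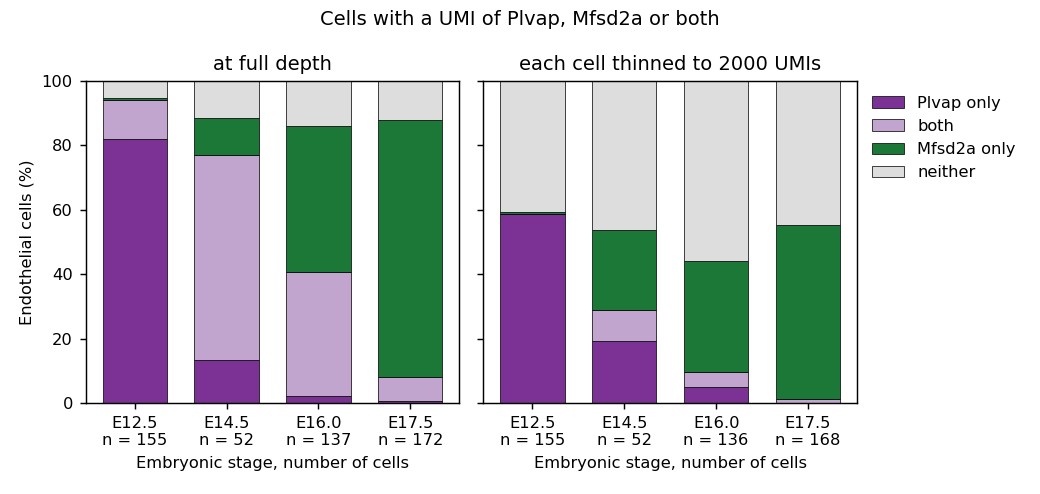
Endothelial cells sorted by whether they held a UMI of Plvap, of Mfsd2a, of both or of neither, in percent of the cells of a stage, at full depth and after thinning each cell to 2000 UMIs. At full depth cells with Plvap alone went from 81.9% at E12.5 to 0.581% at E17.5, and cells with Mfsd2a alone from 0.645% to 79.7%.

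Cells with a UMI of both genes were also counted, at full depth. At E12.5, 127 of 155 cells held Plvap without Mfsd2a and 19 held both. At E14.5, 33 of 52 cells (63.5%) held both and 7 held Plvap alone. At E16.0, 53 of 137 cells held both and 62 held Mfsd2a alone, and at E17.5 this was 13 and 137 of 172.

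Depth differed between stages, with a median of 16801, 16218, 13217 and 7644 UMIs per cell, so each cell was also thinned to 2000 UMIs. Taken as the share expected over all draws of 2000 UMIs, Plvap was then found in 56.5%, 33.6%, 9.91% and 1.76% of endothelial cells and in 0.148% to 0.491% of all other barcodes. Mfsd2a was found in 2.27%, 35.6%, 46.8% and 52.0% of endothelial cells and in 2.58%, 2.69%, 2.64% and 1.04% of the others, so at E12.5 its share was at the level of background RNA. In the 1 random draw that the plot shows, the shares were 58.7%, 28.8%, 9.56% and 1.19% for Plvap and 0.645%, 34.6%, 39.0% and 55.4% for Mfsd2a, and cells with both were 0 of 155, 5 of 52, 6 of 136 and 2 of 168. No background share was measured at full depth, so no co-expression is read from the cells with a UMI of each.

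The barrier transporters rose as a group. Of 18 listed, 17 were tested, and from E12.5 to E17.5, when 22.9% of all 5778 genes tested rose and 20.1% fell, 16 rose and 1 fell, with a median log2 change of 2.17 against 0.03 over all genes. From E12.5 to E14.5, when 4.72% of all genes rose, 10 of the 17 rose and none fell (3.01% of all genes). From E14.5 to E16.0, when 0.433% of all genes rose and 0.537% fell, Slc7a1 alone passed. From E16.0 to E17.5, when 3.57% rose and 2.68% fell, Slc16a1, Slco1c1, Insr and Abcb1a rose.

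Slc38a5, a glutamine transporter (chrX:8271381-8280179), was at 0, 12 and 51.5 CPM at E12.5 and at 189, 316 and 590 at E14.5, lowest, median and highest, then at medians of 601 and 421. The E12.5 libraries did not overlap with any later library, and the whole change was 4.99 ± 0.35. Slc7a1, the cationic amino acid transporter that brings in arginine and lysine (chr5:148327410-148399904), went from 17.9, 36.7 and 94.9 CPM to 386, 468 and 634, then to medians of 902 and 984, a change of 4.50 ± 0.19 (edgeR adjusted p 6.27e-19). Its E16.0 libraries (700 to 1083) lay above all of E14.5.

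Slco1c1, the carrier of thyroxine across the barrier (chr6:141524354-141570177), climbed at a steadier pace, with medians of 5.35, 72.8, 154 and 330 CPM and 3 of 8 libraries at 0 at E12.5. It rose by 3.64 ± 0.50 to E14.5 and again by 1.32 ± 0.23 from E16.0 to E17.5. Tfrc, the transferrin receptor that takes up iron, had medians of 28.7, 168, 274 and 235 CPM and rose by 3.11 ± 0.28. Slc16a1, the lactate and ketone body carrier MCT1, moved late, with medians of 9.01, 4.69, 5.37 and 39.8 CPM and a step of 3.26 ± 0.48 from E16.0 to E17.5.

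Efflux pumps divided. Abcb1a, the P-glycoprotein that returns drugs to the blood and whose promoter is printed above, had medians of 22.1, 49.2, 58.5 and 103 CPM and rose by 2.20 ± 0.22. Abcg2, another drug efflux pump, was the only transporter that fell, from a median of 301 to 171 CPM (by 0.75 ± 0.16), and its call was lost when cells with other types' genes were removed under the longer marker lists (fell by 0.52, edgeR adjusted p 0.128). Slc2a1, the glucose transporter GLUT1, was already at 565 to 875 CPM at E12.5 and rose by 0.68 ± 0.14 to a median of 1035; it was chosen for mention after its values were seen.

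**Figure D2:**
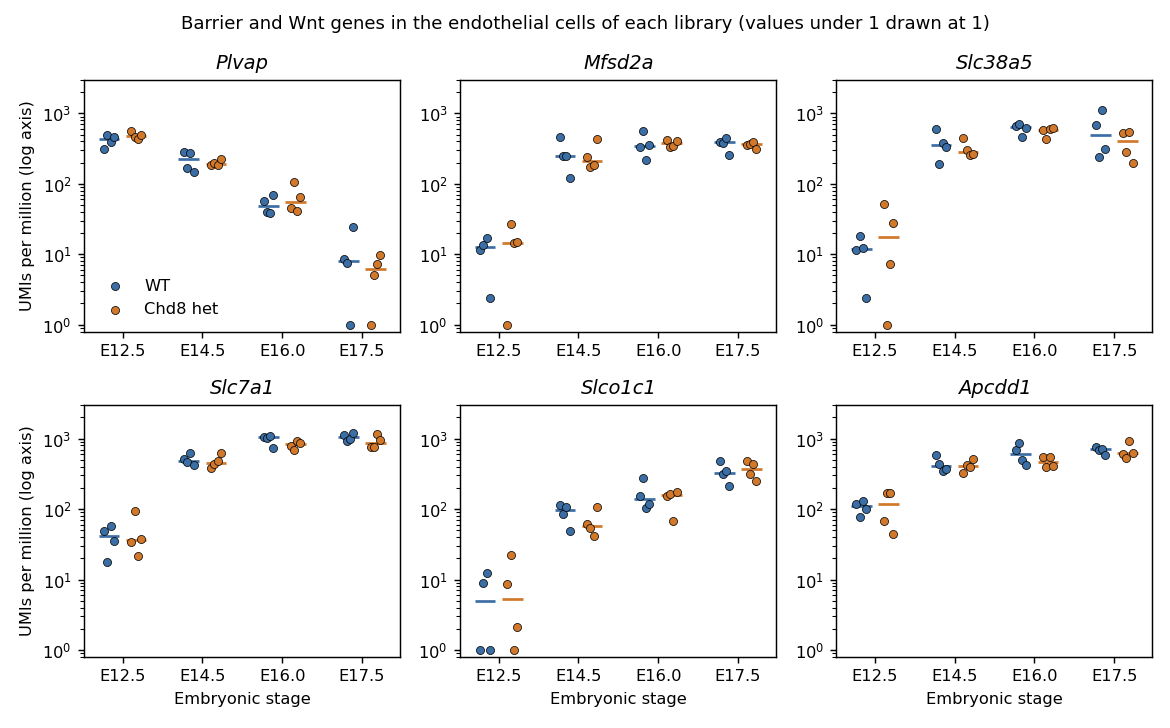
Level of 6 genes in the endothelial cells of each library by embryonic day, in CPM on a log axis (values under 1 drawn at 1). WT and het are marked apart, with a bar at the median of each genotype at each stage. Plvap goes from a median over both genotypes, not drawn as a bar, of 463 CPM to 7.37 CPM. Mfsd2a, Slc38a5, Slc7a1, Slco1c1 and Apcdd1 stand higher in every library from E14.5 on than in any library of E12.5.

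Most Wnt pathway genes tested rose. Of 20 listed, 17 were tested, and 12 rose and none fell from E12.5 to E17.5 (median 0.83), against 22.9% and 20.1% of all genes. From E12.5 to E14.5, when 4.72% of all genes rose, 8 members rose. No member passed in either later step, in which 0.969% and 6.25% of all genes were called, so 0 of 17 there is near the background. The feedback and target genes led. Apcdd1, a secreted-pathway antagonist held in the membrane, had medians of 110, 405, 517 and 664 CPM and rose by 2.75 ± 0.19, and its E12.5 libraries (44.4 to 172) lay below all later ones. Nkd1, an inhibitor that binds Dishevelled, rose by 2.73 ± 0.27 from a median of 22.5 to 279 CPM, although 1 library of E12.5 reached 172.

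Axin2, the scaffold of the beta-catenin destruction complex and a standard target of the pathway, rose by 2.73 ± 0.43, yet its levels were low, with medians of 7.54, 23.1, 32.8 and 29.9 CPM. At 2000 UMIs Axin2 was in 1.41% of endothelial cells and 1.49% of the others at E12.5, and in 5.90% against 1.23% at E17.5. Tnfrsf19, a receptor of the tumour necrosis factor family, rose by 1.70 ± 0.19. The 5 tested members that did not pass were the receptor Fzd4, its co-receptor Lrp5, its partner Tspan12, and the factors Sox17 and Foxl2, with changes of -0.04, 0.26, -0.25, -0.14 and 0.27.

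Junction and caveola genes changed in part. Of 10 junction genes tested, 5 rose and Cdh5 (VE-cadherin, of the adherens junction) fell, by 0.82 ± 0.14, against 22.9% and 20.1% of all genes. Under the longer lists of other types' genes Cdh5 fell by 0.22 and did not pass (edgeR adjusted p 0.371). Ocln, the tight junction protein occludin, rose by 3.12 ± 0.31 from a median of 9.86 to 106 CPM, Lsr, of junctions where 3 cells meet, by 1.71 ± 0.16 and Jam2 by 1.64 ± 0.19. Tjp1 (ZO-1) passed at 0.39 ± 0.14, and this call was lost without the cells carrying other types' genes (0.50, edgeR adjusted p 0.0515), with the litter pair as the sample (0.34, edgeR adjusted p 0.0698) and in some fits without 1 library.

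Genes of caveolae, the vesicles of transcytosis, changed in both directions. Of the 6 genes of the fenestration and transcytosis list, Cav1, Cav2, Cavin1 and Cavin2 rose and Plvap and Cavin3 fell, when 22.9% of all genes rose and 20.1% fell. Cav1, which builds the caveolar coat, had medians of 101, 108, 257 and 433 CPM and rose by 1.06 ± 0.27 and 1.00 ± 0.19 in the later steps, and every E17.5 library (353 to 589) lay above every E16.0 library (146 to 324). Cavin2 rose by 3.26 ± 0.34, and Cavin3 fell by 1.89 ± 0.17 from a median of 380 to 103 CPM, of which 0.86 ± 0.18 in the last step.

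**Figure D3:**
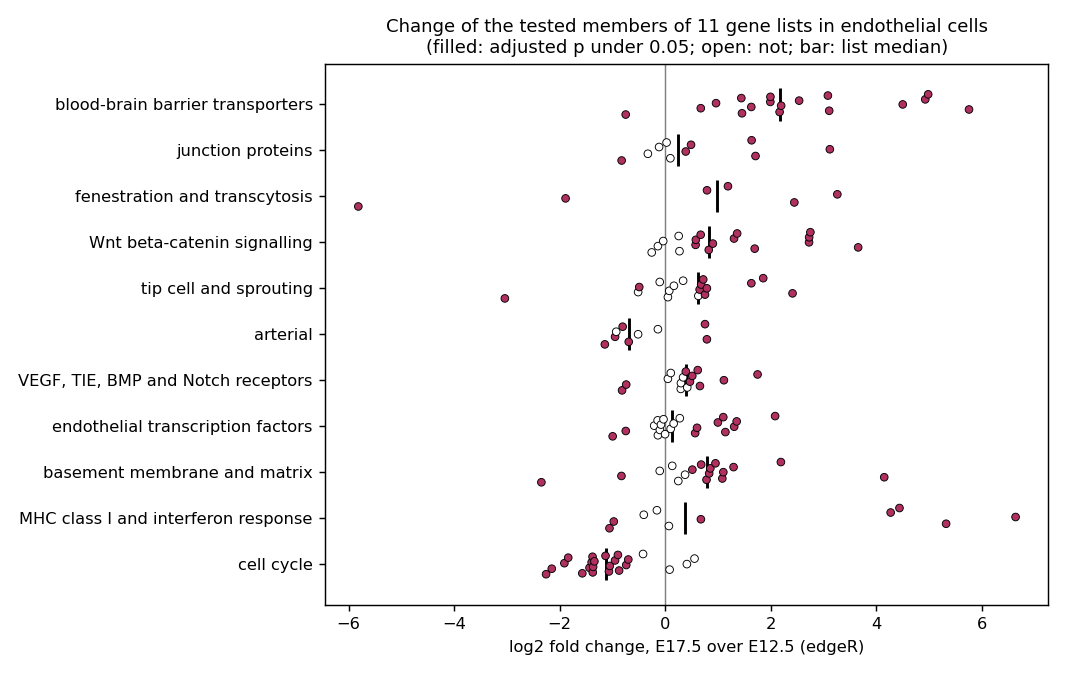
Log2 change from E12.5 to E17.5 of each tested member of 11 gene lists, filled where the edgeR adjusted p is under 0.05, with a bar at the median of the list. The transporter list has its median at 2.17 and the cell cycle list at -1.13, and over all genes tested the median was 0.03.

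Matrix genes changed in both directions. Of 17 basement membrane and matrix genes tested, 11 rose and 2 fell, against 22.9% and 20.1% of all genes. Spock2, a secreted proteoglycan (chr10:60106257-60135198), was at 4.48, 60.3 and 163 CPM at E12.5 and at 396, 594 and 933 at E14.5, with no overlap, and rose by 4.15 ± 0.25 in all. Sparcl1 rose by 2.19 ± 0.17 from a median of 310 to 1355 CPM. Col18a1, the source of endostatin, fell by 2.35 ± 0.21 and Hspg2 (perlecan) by 0.83 ± 0.16. Outside the list Col15a1, a related basement membrane collagen (chr4:47207655-47313167), fell by 5.92 ± 0.34, with medians of 234, 71.5, 12.1 and 2.64 CPM and 3 of 8 libraries at 0 at E17.5. Hapln1, which links hyaluronan to proteoglycans, held 305 UMIs at E12.5 and 1 at E17.5, a ratio of pooled levels of 202 (exact 95% interval for counting error 36.0 to 8010).

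Tip cell genes, which mark the leading cells of a sprout, split. Of 17 tested, 8 rose and 2 fell, against the same shares of all genes. Igf1r rose by 2.42 ± 0.20, Apln, the ligand of the apelin receptor, by 1.86 ± 0.28 and Adm (adrenomedullin) by 1.63 ± 0.35. Esm1 fell by 3.04 ± 0.73, with medians of 41.1, 3.82, 32 and 1.81 CPM and 4 libraries at 0 at both E14.5 and E17.5. The Esm1 call was lost without the cells that carried other types' genes (fell by 1.67, edgeR adjusted p 0.148), as was that of Cd34 (fell by 0.49, then by 0.04).

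Arterial genes were called in both directions. Of 9 tested, Gja4, Efnb2, Jag1 and Tm4sf1 fell, by 1.14, 0.95, 0.69 and 0.81, and Dll4 and Cxcr4 rose, by 0.76 and 0.79, when 20.1% of all genes fell and 22.9% rose. Without the cells that carried other types' genes, all 4 lost their call (fell by 0.71, 0.50, 0.41 and 0.23), while Dll4 stood at 1.14 and Cxcr4 at 1.47. The part of the other cell types in these falls was not tested beyond that comparison. Cxcr4 also lost its call with DESeq2 (adjusted p 0.0521), with the litter pair as the sample (0.72, edgeR adjusted p 0.079), without doublet calls and in some fits without 1 library. Of 8 venous and capillary genes, Slc38a5 and Vwf (von Willebrand factor, 1.32 ± 0.20) rose and the apelin receptor Aplnr fell by 0.69 ± 0.21, a share below the 43.0% of all genes that were called.

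Some receptors of the main vascular signals also changed. Of 15 tested for VEGF, TIE, BMP and Notch ligands, 7 rose and 2 fell with a median of 0.39, against 22.9% and 20.1% of all genes. Ptprb (VE-PTP, a phosphatase of the TIE receptors) rose by 1.75 ± 0.25 and Eng (endoglin, a BMP co-receptor) by 1.11 ± 0.13, with medians of 302 and 626 CPM at E12.5 and E17.5, and Plxnd1, the semaphorin receptor, fell by 0.74 ± 0.16. Of 20 endothelial transcription factors, 8 rose and 2 fell, near the 43.0% of all genes called. Tbx3 rose by 2.08 ± 0.42, the hypoxia factor Epas1 (HIF-2 alpha) by 1.36 ± 0.18, Id1 by 1.31 ± 0.26 and Erg by 1.14 ± 0.19, while Elk3 fell by 0.99 ± 0.14. Sox7 fell by 0.75 ± 0.18, and by 0.12 (edgeR adjusted p 0.771) without the cells that carried other types' genes.

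Surface genes of the Ly6 family rose. Ly6a (Sca-1), a marker of adult mouse endothelium, held 1 UMI at E12.5 and 126 at E17.5, a ratio of 190 (33.5 to 7570), and Ly6c1 rose by 4.44 ± 0.28 with medians of 10.4, 53.1, 64.3 and 205 CPM. Ly6c1 did not pass in either of the first 2 steps. Ly6e rose by 4.28 ± 0.25, of which 2.36 ± 0.36 from E12.5 to E14.5. They stand in a list of 10 tested MHC class I and interferon genes, of which 5 rose and Ifitm2 and Bst2 fell, when 22.9% of all genes rose and 20.1% fell. Ifitm1 rose by 5.33 ± 0.66 over all cells, but in the pooled cells without other types' genes it was at 0.958 CPM at E12.5 and 1.30 CPM at E17.5. Among 20 endothelial markers that the rule did not use, 8 rose and 4 fell, with a median of 0.11. Igfbp7 rose by 1.84 ± 0.11, and Emcn (endomucin) fell by 1.07 ± 0.14 from a median of 529 to 234 CPM.

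Further genes were named for the size of their change among those at least 2 times as high as in the other barcodes. Slc22a8, the organic anion transporter OAT3 (chr19:8591254-8611835), had medians of 1.74, 38.6, 113 and 269 CPM and rose by 6.52 ± 0.29 (edgeR adjusted p 2.39e-18). Pglyrp1, a peptidoglycan recognition protein, rose by 5.72 ± 0.28 from a median of 18.4 to 1071 CPM.

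The falls named outside the lists were those of H19, an imprinted non-coding RNA (4.14 ± 0.47 in log2), Tgfbi (3.97 ± 0.35), the imprinted Peg10 (3.68 ± 0.31), S100a10 (3.66 ± 0.30), Emp1 (3.24 ± 0.44), Sncg (3.14 ± 0.34) and Prss23 (3.09 ± 0.43). Emp1 stayed at medians of 73.2, 79.4 and 70.3 CPM up to E16.0 and dropped to 3.99 at E17.5, a step of -3.16 ± 0.45. H19 fell by 2.82 without the cells that carried other types' genes.

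The same rule also named genes of other cells. Higd1b, which stands on the pericyte list, held 1 UMI at E12.5 and 1130 at E17.5, and the globins Hbb-bs, Hba-a2, Hbb-bt and Hba-a1 rose by 8.2, 7.08, 6.99 and 6.79. In the cells without other types' genes, from which cells with many erythroid UMIs were also removed, Hbb-bs still rose, by 3.99, Hba-a2 and Hba-a1 differed by 1.19 and 0.82 and did not pass the test, and Hbb-bt was not tested. At E14.5, 5 cells held 99.4% of the erythroid UMIs of that stage. Mmp9, a matrix protease, rose by 6.07 ± 0.65 over all cells, but in the pooled cells without other types' genes it was at 0 CPM at E12.5, E14.5 and E16.0 and at 1.30 CPM at E17.5.

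Over all genes, edgeR called 447 of 5778 genes (7.74%) between E12.5 and E14.5, 273 higher and 174 lower, 56 (0.969%) between E14.5 and E16.0, and 361 (6.25%) between E16.0 and E17.5, 206 higher and 155 lower. The 56 rest on the stage of fewest cells (52 at E14.5): the count ran from 16, without WT E14.5 M1, to 80 with 1 library left out, and was 123 with DESeq2, 135 without the filter on low counts and 21 without doublet calls. With the counts of a litter pair summed to 1 sample it was 13, of which 12 were among the 56. Over the whole span 2482 (43.0%) were called. Of these, apart from the 2 genes of the rule among them, 1096 had a lower level in endothelial cells than in the other barcodes at the stage where they were higher, and the part of RNA from surrounding cells in their changes was not tested. Without the cells that carried other types' genes, 1095 of 3381 genes were called over the whole span, of which 1016 were among the 2482, and 84 between E16.0 and E17.5. Under the longer lists of other types' genes, which left 91, 23, 54 and 75 cells at the 4 stages, Cdh5, Aplnr, Cav2, Plxnd1 and Sncg lost their calls over the whole span and Plvap that of its last step (-2.20), with edgeR adjusted p of 0.0652 to 0.371 and the direction kept. The difference went from -0.82 to -0.22 for Cdh5, from -0.69 to -0.38 for Aplnr and from -3.14 to -2.04 for Sncg. It was nearly as large as over all cells for Cav2 (0.79 and 0.76) and Plxnd1 (-0.74 and -0.76).

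The 5 largest rises of the last step by the same naming rule were those of the nuclear receptor Nr4a1 (2.46 ± 0.50), the heat shock chaperone Hspa1a (2.29 ± 0.60), the transcription factor Atf3 (2.05 ± 0.45), the secreted protease Adamts1 (1.83 ± 0.37) and Slfn5 (1.79 ± 0.35). Klf4, of the transcription factor list, rose by 1.2 ± 0.25. Nr4a1 had medians of 45.7, 16, 12.5 and 58.1 CPM, so its E12.5 level was close to that of E17.5. Atf3 had medians of 164, 51.0, 26.3 and 79.4 CPM and was highest at E12.5. Atf3 lost its call without the cells that carried other types' genes (1.71, edgeR adjusted p 0.12), as did Slfn5 (1.91, 0.0769). Hspa1a lost its call in some fits without 1 library. Under the longer lists of other types' genes Adamts1 (1.56, edgeR adjusted p 0.441), Hspa1a (2.47, 0.227) and Atf3 (0.89, 0.75) did not pass. The change of Adamts1 was 1.07 in WT and 2.58 in het libraries, that of Nr4a1 1.67 and 3.26, that of Atf3 1.29 and 2.80 and that of Hspa1a 3.13 and 1.45, and whether the genotypes differ in this 1 step was not tested. In WT libraries alone each lost its call (edgeR adjusted p 0.385, 0.357, 0.268 and 0.112), as did Hspa1a in het libraries alone (0.323). The interaction of genotype and stage over all stages called none of them with the filter on low counts. Without that filter it called each of them (edgeR adjusted p 0.000931, 0.0066, 0.0135 and 0.00211, in the same order).

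Cell cycle genes fell. Of 23 tested, 19 fell and none rose from E12.5 to E17.5, with a median of -1.13 against 0.03 over all genes, of which 20.1% fell and 22.9% rose. Rrm2, a subunit of ribonucleotide reductase, fell by 2.26 ± 0.29, with medians of 177, 66.4, 90.9 and 36.0 CPM. The mitotic cyclin Ccnb1 fell by 2.15 ± 0.36, the replication helicase subunit Mcm5 by 1.91 ± 0.29, Cdc20 by 1.84 ± 0.42 and Aurkb by 1.57 ± 0.36. In WT libraries alone, with fewer samples, Cdc20 (-0.99, edgeR adjusted p 0.0999) and Aurkb (-0.71, 0.204) lost their calls. The 4 that did not pass were Mki67 (0.56), Top2a (-0.42), Cenpf (0.08) and Cenpe (0.41).

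The share of endothelial cells with at least 2 UMIs of the cell cycle list, at 2000 UMIs per cell, averaged 85.1%, 75.9%, 62.0% and 48.5% over the libraries of the 4 stages. It was lower at E17.5 than at E12.5 by 36.65 percentage points, with an exact permutation p of 0.000155, the smallest that 8 libraries against 8 can give (adjusted 0.000775 over 5 tests between stages, 4 of the endothelial share and this one). Over the 4 pair means of each stage it was 0.0286, the smallest exact permutation p for 4 against 4. Neurons sorted as barcodes with at least 3 UMIs of Neurod6 gave 72.7%, 45.7%, 43.3% and 39.6% by the same rule, so the share is not a count of dividing cells. With Tuba1b and Hmgb2 left out of the list, endothelial cells were at 69.2%, 56.9%, 36.9% and 24% and those neurons at 45.6%, 18%, 17% and 11.5%.

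**Figure D4:**
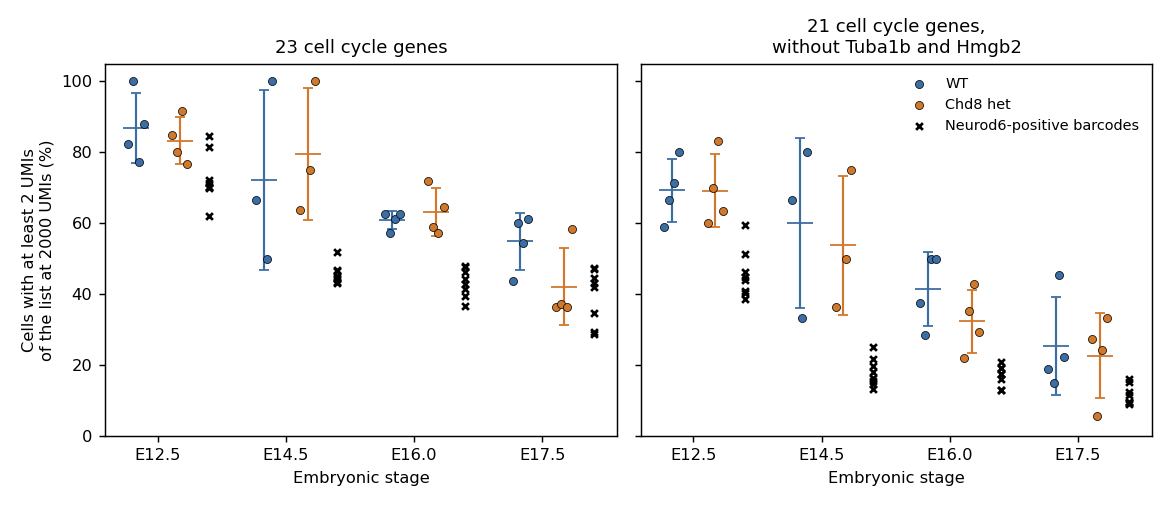
Percent of endothelial cells with at least 2 UMIs of cell cycle genes after thinning to 2000 UMIs, by library and embryonic day, with bars at mean ± SD (n = 4 libraries, 3 at E14.5) and crosses for Neurod6-positive barcodes; 23 genes on the left, 21 without Tuba1b and Hmgb2 on the right. The stage means go from 85.1% to 48.5% on the left and from 69.2% to 24% on the right, and the crosses also fall, from 72.7% to 39.6% and from 45.6% to 11.5%.

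The mean share of endothelial cells among all barcodes was lowest at E14.5 and highest at E17.5. It averaged 0.374% ± 0.185, 0.171% ± 0.0777, 0.326% ± 0.151 and 0.606% ± 0.238 (SD, n = 8 libraries) at the 4 stages. The differences between neighbouring stages were -0.204, 0.155 and 0.280 percentage points, with exact permutation p of 0.00979, 0.0117 and 0.0137 (adjusted 0.0171 each over the same 5 tests) when the 8 libraries of a stage were taken as separate samples. From E12.5 to E17.5 the difference was 0.231 (exact permutation p 0.0474), and the call was lost in 11 of 16 fits without 1 library, including het E17.5 M2 (0.172, p 0.0945). The 2 embryos of a pair share a litter, and over the 4 pair means of each stage the exact permutation p of these 4 differences was 0.0857, 0.0857, 0.0571 and 0.0857, where 0.0286 is the smallest possible. No change of the share between stages therefore passed with the litter pair as the sample.

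Depth touched the first of these steps and the whole span. With every barcode thinned to 2000 UMIs before the rule was applied, the means were 0.222%, 0.171%, 0.345% and 0.606%, and the difference between E14.5 and E12.5 was -0.0510 (exact permutation p 0.293). The difference from E12.5 to E17.5 was then 0.384 (exact permutation p 0.00124). Cldn5 itself was at 1227 CPM at E12.5 and 5385 at E17.5, so a cell of equal depth held more Cldn5 UMIs at the later stage. These are shares of captured barcodes after dissociation and not of the cells in the tissue.

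**Figure D5:**
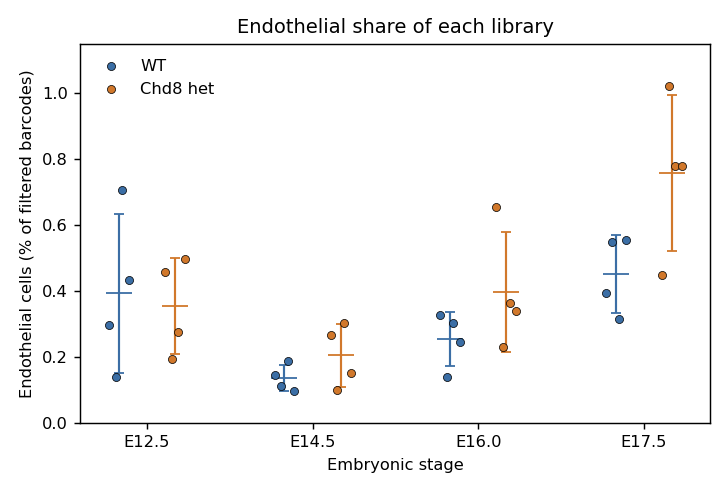
Endothelial cells in percent of all barcodes past the filter, by library, embryonic day and genotype, with bars at mean ± SD (n = 4). The het mean is above the WT mean at E14.5, E16.0 and E17.5, by 0.306 percentage points at E17.5, and the libraries of both genotypes overlap at every stage.

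Chd8 was examined first in the comparison of genotypes. Chd8 lies at chr14:52198151-52258042, and values are given for libraries M1, M2, F1 and F2 in that order. The E12.5 endothelial cells had 27.9, 31.4, 47.1 and 28.4 CPM in WT and 17.2, 40.7, 29 and 21.1 in het. The E14.5 cells had 46.9, 0, 61.2 and 0 in WT and 10.3, 22.8, 41.6 and 21.1 in het. The E16.0 cells had 42.4, 19.9, 45.6 and 39.8 in WT and 22.4, 13.9, 25 and 20.5 in het. The E17.5 cells had 67.6, 48.8, 53 and 30.3 in WT and 20.8, 25.1, 36.2 and 39.6 in het. Chd8 was lower in the het library in 12 of 16 pairs in endothelial cells and in 15 of 16 in the other barcodes. In endothelial cells the libraries of the genotypes overlapped at each stage. Averaged over stages the log2 difference was -0.72 ± 0.23, and edgeR did not call it (p 0.00299 before and 0.802 after adjustment). These 3′ reads need not cover the altered part of the gene, so they do not check the genotype by themselves.

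The endothelial share averaged higher in het than in WT at 3 of the 4 stages, with wide spread, and no single stage passed its test. Over the 4 stages in order, WT averaged 0.394% ± 0.241, 0.136% ± 0.0407, 0.254% ± 0.0834 and 0.453% ± 0.118, and het averaged 0.355% ± 0.145, 0.205% ± 0.0959, 0.397% ± 0.181 and 0.758% ± 0.236 (SD, n = 4). At E17.5 the WT libraries M1, M2, F1 and F2 had 0.395%, 0.548%, 0.314% and 0.555% and their het partners 0.449%, 1.02%, 0.780% and 0.781%. Het was higher in every pair at E16.0 and E17.5 and in 3 of 4 at each earlier stage, 14 of 16 in all, but 1 het library of E17.5 lay below 2 of the WT ones.

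At single stages the exact permutation test gave two-sided p of 0.857, 0.257, 0.2 and 0.0857 (adjusted over 4 stages 0.857, 0.343, 0.343 and 0.343), where 4 libraries against 4 can reach 0.0286. Averaged over stages the difference was 0.120 percentage points with a permutation p of 0.0465, 0.037 when signs were flipped within the pairs, and 0.093 after adjustment over the share and the cycling share. It was lost in 20 of 32 fits without 1 library (0.0978 to 0.146, p 0.00859 to 0.107) and without the limit on Neurod6 (0.104, p 0.103). The endothelial cells of E12.5 differed in depth, with a median of 24948 UMIs in WT and 9456.5 in het, and its part in the share was not tested beyond thinning, which gave 0.119 and p 0.0363.

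No gene passed edgeR's test between het and WT endothelial cells at any stage, averaged over stages, or for a difference between stages, so 0.0% of 5778 genes were called in each. Genes with an unadjusted p under 0.05 numbered 372, 307, 156 and 232 at the 4 stages, 327 on average over stages and 217 for the interaction, and DESeq2 and the fit with the pairs as blocks also called 0. Without the filter on low counts edgeR called 15, 20, 6 and 31 of 17081 genes at the 4 stages, 19 averaged over stages and 43 for the interaction, and all those called at the first 3 stages were among the 5778. The absence of calls therefore holds for the fit with the filter and not for the fit without it. Without cells carrying other types' genes by the longer lists, 1 gene, BC028528, was called at E12.5. Cell numbers were low, with 21 WT and 31 het cells at E14.5. The barrier genes named above had small differences. Plvap differed by -0.05 ± 0.22 and Mfsd2a by 0.11 ± 0.20 averaged over stages, and the transporter and Wnt lists had medians of -0.04 and -0.04 against -0.00 over all genes. At the 4 stages in order Plvap differed by 0.282 ± 0.232, -0.371 ± 0.345, 0.27 ± 0.342 and -0.378 ± 0.77, so its average joins differences of both signs. Mfsd2a differed by 0.435 ± 0.619, -0.0706 ± 0.372, 0.0876 ± 0.274 and -0.0105 ± 0.276.

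Crlf2, a cytokine receptor subunit reported among the genes raised in het in earlier results of these data, was at 24.7 ± 5.62 CPM in WT and 29.9 ± 15 in het endothelial cells at E12.5, and at 33.4 ± 20.8 and 60.1 ± 21.4 at E17.5 (SD, n = 4). Its averaged difference was 0.47 ± 0.22 with an edgeR adjusted p of 0.84. Zcwpw1, Car14 and Gsta4, which the same results name as changed in het, were too low in endothelial cells to be tested.

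The cell cycle list was the one with the largest median difference between genotypes at E17.5, and no member was called with the filter on low counts. There, 19 of its 23 genes were lower in het, 12 had an unadjusted p under 0.05, all lower in het, and the median was -1.0 against -0.00 over all genes, of which 4.02% had such a p. Ccnb2, a mitotic cyclin, differed by -2.39 ± 0.58 (edgeR adjusted p 0.292) and Top2a by -1.46 ± 0.46 (0.719). Averaged over stages 22 of 23 were lower with a median of -0.33. Without the filter on low counts 7 members, Ccnb2 (edgeR adjusted p 1.17e-06), Top2a (0.000831), Mki67, Cdc20, Nusap1, Cenpf and Cenpe, were called lower in het at E17.5, and Top2a was called lower averaged over stages (-0.84, edgeR adjusted p 2.84e-05). Without het library F2 of E17.5, Ccnb2 alone was called at that stage (-3.90, edgeR adjusted p 0.0187).

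The cycling share was also set side by side. At E17.5 the cycling share was 43.8%, 60.0%, 54.5% and 61.1% in WT libraries M1, M2, F1 and F2 and 36.4%, 37.1%, 36.4% and 58.3% in het. The libraries of the genotypes overlap, and on this full list het was lower in every pair of that stage. With Tuba1b and Hmgb2 left out of the list, het was lower in pairs M2 and F1 but higher in pairs M1 and F2. The E17.5 means were then 25.4% ± 13.7 in WT and 22.6% ± 11.9 in het (SD, n = 4). Averaged over stages the difference on the full list was -1.67 percentage points (permutation p 0.732), and het was higher in 6 of 15 pairs. Without doublet calls that difference was 3.71 in the other direction (permutation p 0.526). With Tuba1b and Hmgb2 left out it was -4.54 (permutation p 0.391). Beside these values, pericyte genes summed to 1910 to 4400 CPM in WT and 582 to 3380 in het at E17.5, and erythroid genes to 793 to 47300 and 1090 to 97100, and their part in the differences was not tested.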

How the data were processed

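Raw UMI counts per gene and barcode, as the authors deposited them for 32 libraries, were used. Per the submitters' processing notes, STAR 2.7.9a with STARsolo and Cell Ranger were named, with genome build mm10; the options set are not stated in these notes. The members and all gene lists were chosen with earlier results of these data known. Library totals ran from 14710694 to 66499864 UMIs over 2449 to 7388 barcodes, and the endothelial cells of a library (4 to 35) held 47630 to 891938 UMIs, which limits low genes.

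UMIs of endothelial cells were summed per library, and 2 libraries with fewer than 5 cells (WT E14.5 M2 and het E14.5 M2) were left out of gene fits, leaving 30. Sums were tested with edgeR 4.0.16 (TMM, filterByExpr, quasi-likelihood, 8 groups in 1 fit, Benjamini-Hochberg adjusted p under 0.05 as a call) in R 4.3.3; levels in CPM are shown for all libraries. Stage contrasts average both genotypes. Shares were tested over libraries with permutation tests written in Python 3.11.15 with numpy 2.4.6 (two-sided, exact, or 100000 resamples averaged over stages). The exact intervals for ratios of counts came from scipy 1.17.1. Thinning drew 2000 UMIs per barcode without replacement, leaving out shallower ones (5 of the 516 cells). Alternatives were DESeq2 1.42.0, no filter on low counts, libraries of at least 10 cells, a higher Cldn5 limit of 3 UMIs, doublet calls removed, cells with other types' genes removed, the pairs as blocks, and each library left out in turn. Shorter marker lists, the removal of erythroid cells, a shorter cell cycle list, no Neurod6 limit, each genotype alone and the litter pair as 1 sample in stage contrasts were added after seeing the data. The scripts were tested on simulated data.

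Genes named outside the lists were the 10 (E17.5 against E12.5) or 5 (each step) called with the largest change in each direction, mean log2 CPM 5 or more, the same sign in both genotypes, and a level at least 2 times that of the other barcodes; from each list up to 5 called members per direction were named. Cell cycle gene H2az1 and Aldoa were matched to no single row. The design matched embryos by litter and sex. The sample titles do not name the pairs, so WT and het libraries of equal stage, sex and replicate number were taken as pairs. Residual correlations within 15 pairs ran from -0.137 to 0.279. Genes were counted on 1 embryo each, so replicates are separate animals. Promoter sequences and gene coordinates are RefSeq's (GRCm38.p6); Plvap had no promoter entry. Some genes that the naming rule or the lists hold are not reported here. Motifs were searched as given letters on both strands.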

Additional observations from a re-analysis of the deposited data

Results flagged for a closer look

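In 62 groups of libraries tested for a value that stands apart from the rest of its group, 4 were flagged, and chance flags about 1 in 20. The cycling share of endothelial cells in het E17.5 F2 was 58.3%, against 36.4% to 37.1% in the other 3 het libraries of that stage. Slc22a8 in het E12.5 F1 was at 21.7 CPM, against 0 to 4.52 CPM in the other 7 libraries of E12.5. Plvap in het E16.0 M2 was at 107 CPM, against 38.0 to 69.6 CPM in the other 7 libraries of E16.0. Plvap in WT E17.5 F2 was at 24.2 CPM, against 0 to 9.91 CPM in the other 7 libraries of E17.5.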

How the results depend on the processing

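Of 129 gene results, DESeq2 kept the call and direction of 127, and of the 98 that could be tested without cells carrying other types' or erythroid genes 81 kept theirs. Calls were lost, with the direction kept, by 20 of 81 under the longer lists, 13 of 101 under the shorter lists, and, with fewer samples, 30 of 127 in WT libraries and 38 of 127 in het libraries alone, and 9 of 127 with counts summed per litter pair, a setting that gave 365, 13, 258 and 2679 calls for the 3 steps and the whole span. The stage of fewest cells, E14.5, limited what could be shown: with marker-carrying cells removed its contrasts, the average over stages and the interaction could not be fitted, nor could the contrasts that need E14.5 with libraries of at least 10 cells. Hba-a2 from E12.5 to E14.5 ran from -0.87 (log2, edgeR adjusted p 0.973) to 7.43 with each library left out in turn. The cause of these differences was not tested.

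The count called from E14.5 to E16.0 was 56, and it was 123 with DESeq2 (38 higher, 85 lower), 135 without the filter on low counts (101 higher, 34 lower) and 21 without doublet calls. Without the filter 15, 20, 6 and 31 genes were called between genotypes at the 4 stages, 19 averaged over stages and 43 for the interaction, and from E12.5 to E14.5 the split was 249 higher to 324 lower; that setting moved the median of all genes by -0.17 from E12.5 to E14.5 and by 0.13 from E14.5 to E16.0. Removing cells with markers of other types by the longer lists left 7 calls from E16.0 to E17.5 and 635 from E12.5 to E17.5, and 1 between genotypes at E12.5, BC028528. The shorter lists left 88 and 1351, and the removal of erythroid cells too left 84 and 1095, all with fewer genes tested. WT libraries alone gave 178, 1, 16 and 1468 calls for the 3 steps and the whole span, and het libraries alone 134, 0, 40 and 1445.

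The replicate block gave 0 calls in every genotype contrast; for shares it gave exact permutation p of 1.0, 0.25, 0.125 and 0.125 at the 4 stages (0.125 is the smallest for 4 pairs), 0.037 averaged over stages and 0.641 for the cycling share (-1.67), and it changed no call. The averaged share difference was 0.104 (permutation p 0.103) without the Neurod6 limit, the share change from E12.5 to E14.5 was -0.0510 (p 0.293, exact permutation) with thinned barcodes, and the averaged cycling difference was 3.71 without doublet calls. Over the means of litter pairs the stage differences of the share, -0.204, 0.155, 0.280 and 0.231, had exact permutation p of 0.0857, 0.0857, 0.0571 and 0.0857 and lost their calls, with fewer samples.

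Leaving out each library in turn gave 329 to 551 calls for E12.5 to E14.5, 16 to 80 for E14.5 to E16.0, 262 to 464 for E16.0 to E17.5 and 2168 to 2540 for the whole span. The count from E14.5 to E16.0 was 16 without WT E14.5 M1, 32 without WT E14.5 F2, 37 without het E14.5 M1, 33 without het E14.5 F1, 37 without het E14.5 F2, 28 without WT E16.0 M2, 31 without het E16.0 M1 and 34 without het E16.0 M2. Genotype contrasts gave 0 calls, except 0 to 1 at E17.5. Share differences between genotypes ran from -0.124 to 0.0658 at E12.5, 0.0365 to 0.104 at E14.5, 0.0572 to 0.199 at E16.0, 0.217 to 0.409 at E17.5 and 0.0978 to 0.146 averaged. At E12.5 the difference was above 0 without WT F1 (0.0658) or het M2 (0.0156); at E16.0 it passed without het M2 (0.199) and at E17.5 without het M1 (0.409), each at the smallest exact permutation p possible, 0.0286. Between stages shares ran from -0.237 to -0.156, 0.108 to 0.182, 0.220 to 0.327 and, for the whole span, 0.172 to 0.279. The cycling share ran from -38.5 to -34.5 between E12.5 and E17.5 and from -4.45 to 1.80 between genotypes, above 0 without WT E14.5 F2 (1.80) or het E14.5 M1 (0.315).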
